A study of Homo sapiens with 3 samples.

Results

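The Iroquois homeobox genes IRX1 to IRX6 were all 6 present among the 62754 genes of each expression table and were taken by symbol. They were described in primitive neural progenitor cells (pNPCs), an early neural stage that came from the established H1 embryonic stem cell line. The series has a single group, wild-type pNPCs, with 3 replicate libraries of polyadenylated RNA, and it belongs to work on chimeric brain models in which human neurons, macroglia and microglia interact. Per the labels, the cells were kept in a neural medium with FGF2, the GSK3 inhibitor CHIR99021, which activates WNT signalling, leukemia inhibitory factor, the TGF-beta receptor inhibitor SB431542 and the ROCK inhibitor Y-27632. No library of another genotype, treatment or time is analysed here, so the measurements are levels within each library and their spread over the libraries.

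Iroquois genes encode transcription factors with a TALE homeodomain, a DNA-binding domain with an extra loop of residues, and are named after the Iroquois genes of Drosophila. In vertebrates they lie in 2 clusters, thought to have arisen by duplication of 1 ancestral cluster, so that IRX1 and IRX3, IRX2 and IRX5, and IRX4 and IRX6 are taken as corresponding pairs. In vertebrate embryos several of them are expressed in the neural plate caudal to the anterior forebrain, and they take part in patterning of the brain, the spinal cord, the heart and the retina. On GRCh38.p14, IRX3 (ENSG00000177508.12) lies on chromosome 16 from 54283304 to 54286787, IRX5 (ENSG00000176842.16) from 54930865 to 54934485 and IRX6 (ENSG00000159387.8) from 55324203 to 55330756. IRX4 (ENSG00000113430.10) lies on chromosome 5 from 1877413 to 1887179, IRX2 (ENSG00000170561.13) from 2735635 to 2751677 and IRX1 (ENSG00000170549.4) from 3595832 to 3601403. The gaps between neighbouring members are 644 kb and 390 kb in the chromosome 16 cluster and 848 kb and 844 kb in the chromosome 5 cluster.

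The homeobox bears on how the reads of these genes could be counted, because part of its coding sequence is nearly the same in all members. The longest stretch that the longest coding transcripts of IRX3 and IRX5 share in GENCODE release 29 (GRCh38) is 134 bases, and it is shown for every member, 5′ to 3′ on the coding strand, with bases that differ from IRX3 in capitals.
IRX3: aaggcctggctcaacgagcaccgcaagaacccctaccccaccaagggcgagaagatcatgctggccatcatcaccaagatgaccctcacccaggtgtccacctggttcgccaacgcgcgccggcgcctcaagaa
IRX5: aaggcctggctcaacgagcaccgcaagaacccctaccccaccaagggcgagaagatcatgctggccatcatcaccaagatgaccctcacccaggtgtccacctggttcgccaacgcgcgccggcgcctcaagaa
IRX6: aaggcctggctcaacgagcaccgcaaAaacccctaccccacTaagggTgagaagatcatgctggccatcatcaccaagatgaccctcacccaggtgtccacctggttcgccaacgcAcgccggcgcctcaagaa
IRX1: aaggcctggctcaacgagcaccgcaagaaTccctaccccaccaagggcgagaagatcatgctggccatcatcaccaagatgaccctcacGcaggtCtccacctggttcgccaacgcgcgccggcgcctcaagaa
IRX2: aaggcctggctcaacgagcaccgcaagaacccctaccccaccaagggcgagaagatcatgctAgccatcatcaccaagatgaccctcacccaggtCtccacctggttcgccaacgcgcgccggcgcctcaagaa
IRX4: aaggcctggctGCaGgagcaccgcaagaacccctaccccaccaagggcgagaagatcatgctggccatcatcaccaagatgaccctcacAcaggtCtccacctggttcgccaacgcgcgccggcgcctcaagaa
The stretch is coding sequence within 1 exon in each gene. It lies in exon 2 of IRX3 (chr16:54285321-54285454, minus strand), exon 2 of IRX5 (chr16:54932633-54932766, plus strand), exon 4 of IRX6 (chr16:55327656-55327789, plus strand), exon 2 of IRX1 (chr5:3599375-3599508, plus strand), exon 2 of IRX2 (chr5:2749516-2749649, minus strand) and exon 5 of IRX4 (chr5:1879635-1879768, minus strand). IRX5 had 0 differences from IRX3 by the choice of the stretch, IRX2 had 2, IRX1 had 3, IRX6 had 4 and IRX4 had 5. IRX3 and IRX5 were the only pair of the 15 with identical windows of 75 bases, of which they shared 60. The longest identical stretch was 74 bases for IRX4 with IRX3 or IRX5, and 68 for IRX6 with IRX3 or IRX5. The window was set at 75 bases, so these shorter shared stretches were not counted.

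The depth behind the levels was 34658454, 38400092 and 30038114 expected counts in replicates 1, 2 and 3. The length of a transcript minus its deposited effective length, which follows the fragment length of a library, had a median of 216 bases in replicate 1, 253 in replicate 2 and 259 in replicate 3 over genes longer than 2000 bases. Detection meant a TPM of at least 1 in all 3 libraries, which 62.2% of all protein-coding genes reached. Of neural progenitor markers 10 of 12 were detected, among them SOX2, SOX3 and NES, and PAX6 (0.13, 0.81 and 0.38 TPM) and HES5 (6.76, 0.72 and 5.66 TPM) were not. Of neural crest and mesenchyme markers 10 of 10 were detected, and of pluripotency markers 1 of 5, DPPA4, with POU5F1 at 0.11, 0.08 and 0.14 TPM. The labelled neural identity thus came with crest and mesenchyme transcripts in the same bulk RNA, which summed to 665, 1357 and 1007 TPM over that list in replicates 1, 2 and 3. Bulk RNA does not assign an IRX transcript to a cell type, and fewer cells of a type and less RNA per cell cannot be told apart.

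Of the 6 IRX genes 4 were detected, meaning a TPM of at least 1 in all 3 libraries, where TPM (transcripts per 1000000) is a level per unit of effective length that adds up to the same total in each library. Over all protein-coding genes 62.2% were detected by the same rule (12354 of 19855) and over all genes 23.0%, so the share of IRX genes was close to that of protein-coding genes. IRX1, IRX2, IRX3 and IRX5 were detected and IRX4 and IRX6 were not, so the undetected members were 1 of each cluster and form 1 of the corresponding pairs. The median of log2(TPM + 1) over the 6 genes was 3.62, 2.82 and 3.54 in replicates 1, 2 and 3, against 2.66, 2.93 and 2.99 over all protein-coding genes.

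**Figure D1:**
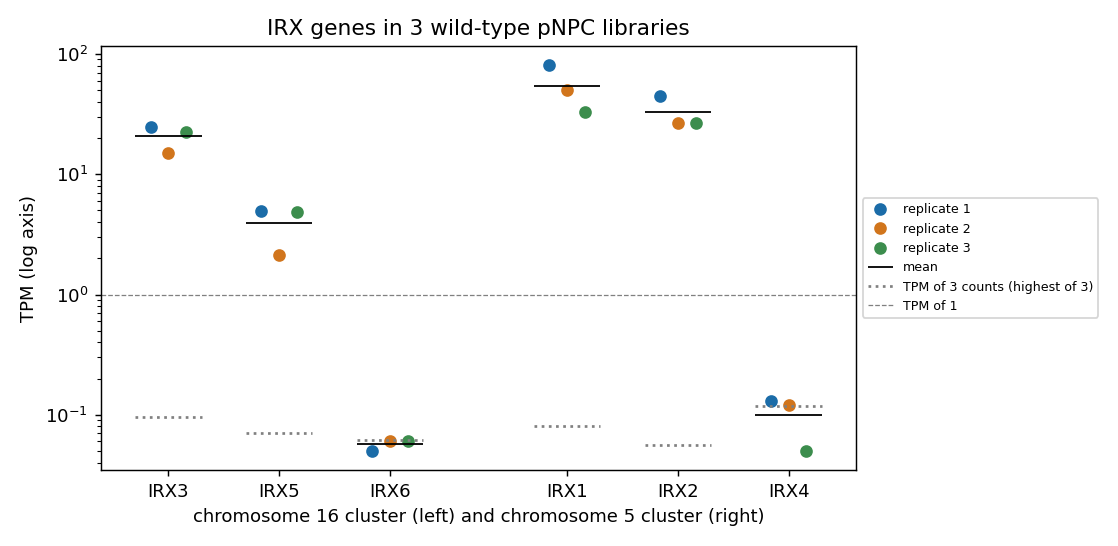
TPM (log axis) of the 6 IRX genes in the 3 wild-type pNPC libraries, with the chromosome 16 cluster on the left and the chromosome 5 cluster on the right. Points are libraries, solid lines are means, the dashed line is a TPM of 1 and dotted lines are the TPM that 3 counts would give in the library where this is highest. IRX3, IRX5, IRX1 and IRX2 lie above 1 TPM in every library, and IRX6 and IRX4 lie near the level of 3 counts.

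In the chromosome 16 cluster, IRX3 was the highest. IRX3, which in chick and mouse marks neural plate caudal to the anterior forebrain and later a band of the ventral neural tube, had 24.6, 15.0 and 22.4 TPM in replicates 1, 2 and 3, or 20.7 ± 5.01 TPM (SD, n = 3). Replicate 2 was the lowest, and the other libraries were close to each other in deposited TPM. With 1 fixed effective length they were further apart, at 29.1 TPM in replicate 1 and 20.9 in replicate 3. By deposited values, 6251 of 19855 protein-coding genes had a higher mean TPM than IRX3. IRX5, which in mouse acts in retinal bipolar cells and in the repolarization gradient of the heart, had 4.94, 2.12 and 4.82 TPM, or 3.96 ± 1.59 TPM (SD, n = 3). It shared with IRX3 the low value in replicate 2. IRX6, known from mouse retinal bipolar cells, had 3, 4 and 3 expected counts, or 0.05, 0.06 and 0.06 TPM. The 95% Poisson interval of its count was 0.62 to 8.77 in replicates 1 and 3 and 1.09 to 10.2 in replicate 2, which covers counting error only. IRX6 thus rested on 10 counts over the series.

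In the chromosome 5 cluster, IRX1 and IRX2 were the highest genes of the family. IRX1, expressed in the vertebrate midbrain and hindbrain among other tissues, had 80.7, 50.7 and 32.7 TPM in replicates 1, 2 and 3, or 54.7 ± 24.2 TPM (SD, n = 3). Its values did not lie close together in any pair of libraries, and the highest was 2.47 times the lowest. IRX2, which in chick takes part in forming the cerebellum under FGF8 signalling, had 45.1, 26.7 and 26.6 TPM, or 32.8 ± 10.7 TPM (SD, n = 3). Replicates 2 and 3 gave nearly the same level of IRX2 and replicate 1 a higher one. IRX4, a gene of the heart ventricle, had 7, 3 and 2 expected counts, or 0.13, 0.12 and 0.05 TPM. The TPM that 3 counts would give for IRX4 was 0.0543, 0.117 and 0.0695 in the same libraries, so its levels stood at that limit or within a few counts of it.

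The order of mean TPM was IRX1, IRX2, IRX3, IRX5, IRX4 and IRX6. Differences between neighbours in that order were taken within each library as log2(TPM + 1), a scale on which low genes differ by less than their true ratio. IRX1 exceeded IRX2 by 0.67 ± 0.34 (SD, n = 3), with differences of 0.82, 0.90 and 0.29 in replicates 1, 2 and 3. IRX2 exceeded IRX3 by 0.63 ± 0.34, with 0.85, 0.79 and 0.24. Both steps were of the same sign in 3 of 3 libraries and smallest in replicate 3. IRX3 exceeded IRX5 by 2.16 ± 0.18 and IRX5 exceeded IRX4 by 2.11 ± 0.55, also in 3 of 3 libraries. With a pseudocount of 0.1 in place of 1, the difference between IRX5 and IRX4 was 4.27. IRX4 and IRX6 differed by 0.06 ± 0.06, in 2 of 3 libraries, which is within the spread and within a few counts. For each of the first 4 steps the exact permutation test by sign flips, two-sided, returned p = 0.25, its lowest possible value with 3 libraries (Benjamini-Hochberg adjusted over the 5 steps 0.312), so none could pass a threshold of 0.05, and for the last the exact permutation p was 0.5 (adjusted 0.5). A scale of reads with no length scaling (CPM, counts per 1000000) does not compare levels between genes of different length. On it the mean of the first step was 0.15 and that of the second 1.27. The first step was reversed in replicate 3 on that scale.

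Summed over its members, the chromosome 16 cluster had 29.6, 17.2 and 27.2 TPM in replicates 1, 2 and 3, against 125.9, 77.5 and 59.3 TPM for the chromosome 5 cluster. The chromosome 16 sum was lower in every library, and the ranges of the sums did not overlap. It was 23.5%, 22.2% and 45.9% of the chromosome 5 sum. The difference in log2(summed TPM + 1), chromosome 16 minus chromosome 5, was -1.75 ± 0.57 (SD, n = 3), with -2.05, -2.11 and -1.09 in replicates 1, 2 and 3. By the same exact permutation test p was 0.25, again the lowest it can return. In replicate 3 the gap was narrower than in the other libraries, as IRX1 was at its lowest there while IRX3 and IRX5 were not. IRX1 alone made up 51.9%, 53.5% and 37.7% of the TPM of all 6 genes, IRX2 29.03%, 28.2% and 30.7%, and IRX3 15.8%, 15.9% and 25.8%.

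**Figure D2:**
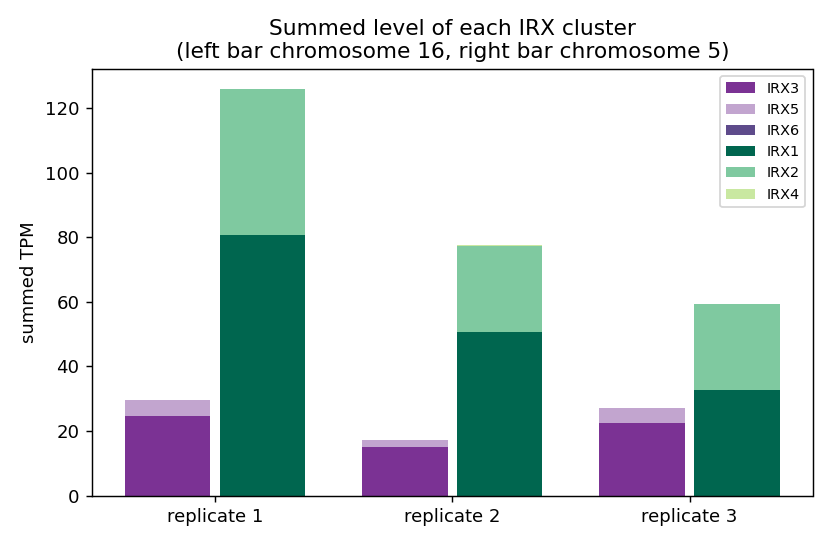
Summed TPM of the IRX genes of chromosome 16 (left bar) and chromosome 5 (right bar) in each wild-type pNPC library, stacked by gene. IRX6 and IRX4, below 0.2 TPM, are too low to be seen. The left bar is the lower in all 3 libraries, at 29.6 against 125.9 TPM in replicate 1.

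All 4 detected IRX genes had their highest TPM in replicate 1. Among detected protein-coding genes 25.0% did (3092 of 12354), and 7082 of them had their lowest value there. For IRX5 the lead of replicate 1 over replicate 3 was small, at 4.94 against 4.82 TPM. With 1 fixed effective length per gene, IRX5 was highest in replicate 3, at 4.98 TPM against 4.77 in replicate 1. With no length scaling, as CPM after TMM normalization, replicate 1 exceeded the mean of the other libraries by 1.15 for IRX1, 0.90 for IRX2, 1.06 for IRX3 and 0.78 for IRX5 on the log2 scale. Whether the spread of a gene over the 3 libraries was larger than that of genes of like abundance was tested over 17046 genes with edgeR. Of the 4 IRX genes that passed its filter on low counts, IRX1 was called (adjusted p = 0.0228), against 1.59% of all genes tested (271). The adjusted p was 0.127 for IRX3, 0.349 for IRX2 and 0.731 for IRX5. At an unadjusted p under 0.05 there were 3 of the 4, IRX1, IRX2 and IRX3, against 7.35% of all genes. The call of IRX1 was lost with a common dispersion (adjusted p = 0.165) and without replicate 1 (0.132), replicate 2 (0.117) or replicate 3 (0.858). When a trend with gene length was taken out of each library first, IRX1 (adjusted p = 0.00117) and IRX2 (0.0414) were called.

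The order of the libraries was also compared with a library property and with marker lists. Replicate 1, where the detected IRX genes had their highest deposited TPM, was the library with the shortest effective fragment length given above. Neural progenitor markers had a summed level of 2660, 2772 and 2418 TPM in replicates 1, 2 and 3. Most of each sum was VIM, at 1899, 2113 and 1724 TPM. The median of log2(TPM + 1) over that list was 6.44, 5.84 and 6.21. Of its 10 detected members 4 were highest in replicate 1, among them SOX2 at 97.8, 46.3 and 63.4 TPM. Of 9 detected neuron markers 6 were highest there, with sums over the list of 591, 412 and 403 TPM. Of 10 detected neural crest and mesenchyme markers 8 were lowest there, with sums over the list of 665, 1357 and 1007 TPM and PRRX1 at 86.2, 294 and 239 TPM. The other 2 were highest in replicate 1, SOX10 at 29.14, 22.39 and 15.15 TPM and FOXD3 at 7.17, 6.56 and 4.44 TPM. Over all 12354 detected protein-coding genes, 25.0% were highest in replicate 1 and 7082 were lowest there, so these marker counts partly follow a tendency of all genes. By the same edgeR test 2 of 11 tested progenitor markers were called (SOX3 and HES5), 2 of 11 neuron markers (STMN2 and ELAVL4) and 2 of 10 crest and mesenchyme markers (COL1A1 and PDGFRA), against 1.59% of all genes tested. The part of these differences in the IRX levels was not tested.

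**Figure D3:**
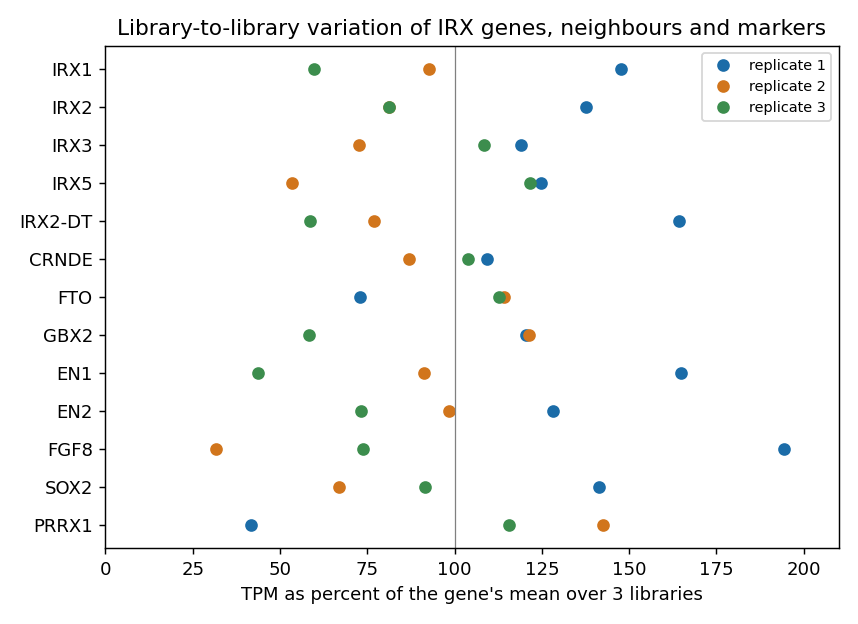
TPM of each gene as a percentage of its own mean over the 3 wild-type pNPC libraries, for the 4 detected IRX genes, neighbouring genes (IRX2-DT, CRNDE, FTO), isthmus genes (GBX2, EN1, EN2, FGF8) and the markers SOX2 and PRRX1. IRX1 spans 148% in replicate 1 to 59.8% in replicate 3, the points of replicates 2 and 3 coincide for IRX2, and FTO and PRRX1 are lowest in replicate 1.

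IRX3 and IRX5 were the members with fractional counts. Their deposited counts were fractional in replicate 1, at 1321.49 for IRX3 and 267.51 for IRX5, and in replicate 2, at 565.83 and 114.17. In both libraries the 2 counts added up to a whole number within 0.005, 1589 and 680. In replicate 3 they were whole on their own, at 699 and 206. The counts of IRX1, IRX2, IRX4 and IRX6 were whole in all 3 libraries, as were 86.8%, 87.5% and 87.8% of the counts of all genes in replicates 1, 2 and 3, zeros included. RSEM divides reads that fit several genes, and IRX3 and IRX5 share the 134 bases printed above. Whether the divided reads came from that stretch was not tested.

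IRX3 also changed in the transcript length that RSEM assigned to it, which enters its TPM. The deposited length was 2335 bases in replicate 1, 1702 in replicate 2 and 1802 in replicate 3, where GENCODE release 29 lists coding transcripts of 2601 and 444 bases and a retained-intron transcript of 1540 bases. The files' annotation is not release 29: IRX1, with 1 transcript of 1858 bases there, had 2080 bases in every library. IRX2 had between 2873 and 2911. With 1 fixed effective length per gene, IRX3 stood at 29.1, 13.0 and 20.9 TPM, so that its highest library was 2.23 times its lowest, against 1.64 times with the deposited lengths. In CPM the same ratio was 2.59 for IRX3, 2.80 for IRX1, 1.89 for IRX2 and 2.61 for IRX5. The ratio of highest to lowest library for IRX3 thus ran between 1.64 and 2.59 with the length scaling used.

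Transcription units next to the IRX genes differed in level from them. IRX2-DT, a non-coding gene that starts next to IRX2 and runs in the opposite direction, had 33.2, 15.6 and 11.8 TPM, from 270, 115 and 90 counts. Like all 4 detected IRX genes it was highest in replicate 1, as were 25.0% of detected protein-coding genes. IRX2 stood at 1.36, 1.71 and 2.25 times the TPM of IRX2-DT. In edgeR the spread of IRX2-DT was not called (adjusted p = 0.479). CRNDE, a long non-coding RNA gene divergent from IRX5 with a gap of 1978 bases between their RefSeq starts, had 66.0, 52.5 and 62.7 TPM. IRX5 was thus at 7.49%, 4.04% and 7.69% of the TPM of CRNDE. FTO, a demethylase gene whose introns hold distal enhancers of IRX3, had 33.5, 52.5 and 51.8 TPM and was lowest in replicate 1.

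Within 1000000 bases of an IRX gene, the RefSeq table listed 54 other genes on chromosome 16, of which 28 were matched by name and 8 were detected. On chromosome 5 it listed 70, of which 32 were matched and 10 detected. Of the matched protein-coding genes among them, 7 of 12 on chromosome 16 and 8 of 12 on chromosome 5 were detected, against 62.2% of all protein-coding genes, so the shares were near that background. Over all genes of any type 23.0% were detected. Of the 10 matched genes that are the nearest neighbour of an IRX gene on either side or overlap it, CRNDE and IRX2-DT were detected. The others were LINC02169, LINC02140, RN7SL841P, RPL31P56, CTD-2194D22.4, IRX4-AS1, LSINCT5 and LINC01019, each at or below 0.2 TPM in every library. GENCODE release 29 lists 1 antisense gene overlapping each of IRX1, IRX3, IRX4 and IRX6. These antisense genes had 0 counts in all libraries for IRX1 and IRX6, at most 7 for IRX3 and at most 1 for IRX4. No source used here gives the strand setting of the counting, so reads of an IRX gene and of an overlapping antisense gene may not be separable.

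**Figure D4:**
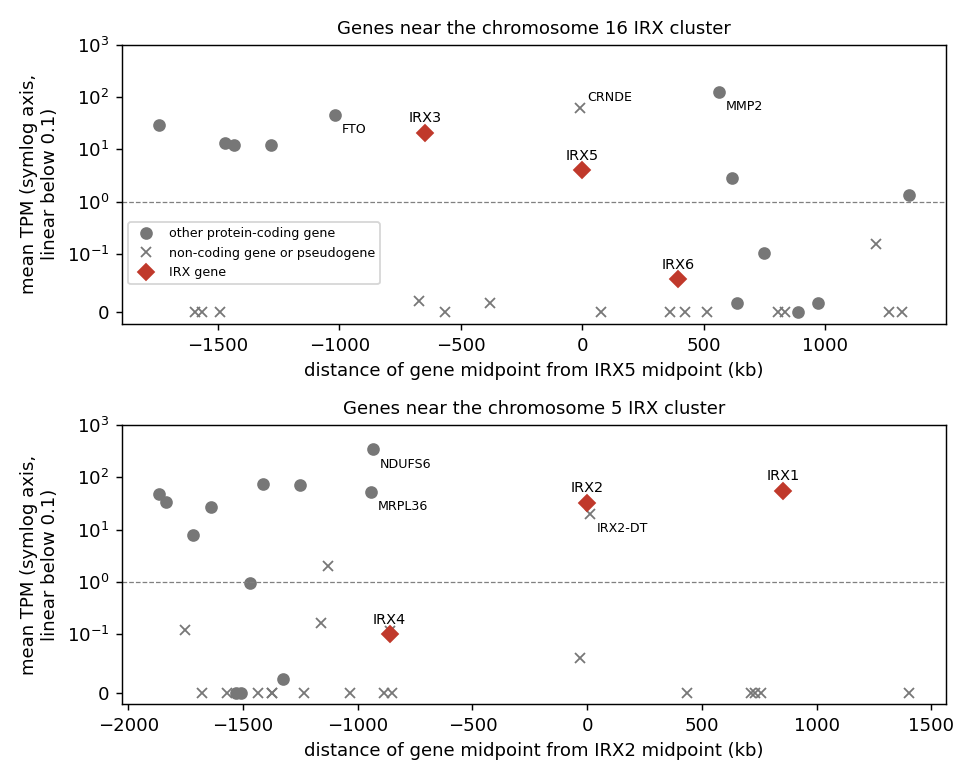
Mean TPM over 3 wild-type pNPC libraries (axis linear below 0.1 and logarithmic above) of genes near the chromosome 16 and chromosome 5 IRX clusters, by distance of their midpoint from that of IRX5 or IRX2 in kb. Diamonds are IRX genes, circles other protein-coding genes and crosses non-coding genes and pseudogenes, and the dashed line is a TPM of 1. IRX1 and IRX2 stand above 30 TPM beside mostly undetected non-coding genes, while CRNDE stands above IRX5.

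Upstream sequence was shown for the chromosome 5 genes whose levels were highest. RefSeq promoter windows were given for IRX1, IRX2 and IRX4, for IRX2-DT and for CRNDE. The 250 bases before the start of IRX1 (GRCh38.p14, chr5:3595582-3595831, plus strand) are printed because IRX1 had the highest level of the family and because the window holds a CCAAT box and the letters of a TCF/LEF motif. Whether either is bound or bears on the level of IRX1 was not tested. Capitals mark both motifs, which overlap by 2 bases.
IRX1 upstream: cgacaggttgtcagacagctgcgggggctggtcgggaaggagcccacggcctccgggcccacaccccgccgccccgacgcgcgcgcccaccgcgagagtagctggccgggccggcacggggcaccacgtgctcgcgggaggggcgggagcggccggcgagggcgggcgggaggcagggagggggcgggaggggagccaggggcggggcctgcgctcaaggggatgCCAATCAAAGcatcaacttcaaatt
The 215 bases between the starts of IRX2 and IRX2-DT (chr5:2751678-2751892, minus strand, in the direction of IRX2) are printed because both transcripts leave from them, with GC boxes in capitals.
IRX2 and IRX2-DT: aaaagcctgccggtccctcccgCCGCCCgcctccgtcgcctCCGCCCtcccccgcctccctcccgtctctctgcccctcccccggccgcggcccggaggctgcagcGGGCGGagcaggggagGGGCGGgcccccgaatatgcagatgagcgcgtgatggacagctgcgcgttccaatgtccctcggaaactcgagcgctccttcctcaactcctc
Motifs were chosen after these sequences were seen and were searched on both strands in the 250 bases before each start. CTTTGAT, the TCF/LEF letters, was found once before IRX1, from 22 to 16 bases upstream, and in none of the windows of IRX2, IRX2-DT, IRX4 and CRNDE, while 2.28% of 27305 promoters held it. CCAAT was found once each before IRX1, IRX2, IRX2-DT and CRNDE, and in 33.0% of all promoters. The windows of IRX2 and IRX2-DT overlap, and their CCAAT is the same site. GGGCGG, the GC box, was found 5 times before IRX1, 3 times before CRNDE, and 4 times before IRX2 and IRX2-DT, at the same sites. Before the 3 starts of IRX4 it was found 3, 0 and 2 times. At least 1 GC box was held by 42.3% of promoters, and the number per promoter was not compared. TATAAA (11.1% of promoters) and the Iroquois palindrome ACANNTGT (4.74%) were found in none of the windows of these genes. CpG pairs numbered 29 before IRX1, 27 before IRX2 and between 30 and 40 before the 3 starts of IRX4, against a median of 11 over all promoters. The undetected IRX4 thus had no fewer CpG pairs than the detected members of its cluster.

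Other TALE homeobox genes, the superclass to which the IRX genes belong, were detected in 11 of 12 cases, against 62.2% of all protein-coding genes. PBX genes, whose proteins bind DNA with HOX and MEIS partners, were led by PBX2 at 129 ± 14.9 TPM (SD, n = 3). MEIS3 stood at 23.2 ± 1.11, MEIS2 at 13.2 ± 4.18 and MEIS1 at 9.67 ± 3.03 TPM. The TGIF genes, which encode repressors that bind SMAD proteins, stood at 59.04 ± 11.8 (TGIF1) and 41.2 ± 1.49 TPM (TGIF2). MKX, a regulator of tendon, was not detected at 0.08 ± 0.03 TPM. In edgeR, 0 of the 11 tested were called for excess spread, against 1.59% of all genes tested. An unadjusted p under 0.05 was found for 0 of the 11, against 7.35% of all genes. With 11 genes, 0 lies near both shares.

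Of 18 factors that border or signal to IRX domains in the vertebrate neural tube, 4 were detected, against 62.2% of all protein-coding genes. EN2 and EN1, homeobox genes of the midbrain and anterior hindbrain, had 100.1, 76.8 and 57.0 TPM and 64.8, 35.8 and 17.2 TPM in replicates 1, 2 and 3. GBX2, a homeobox gene needed for the anterior hindbrain, had 74.4, 75.01 and 36.03 TPM. FGF8, the growth factor of the isthmus, had 21.6, 3.54 and 8.21 TPM and was chosen with its values in view. Of the 18 genes 7 passed the filter of the spread test and 3 were called, EN1, GBX2 and FGF8 (adjusted p = 0.000213, 0.0161 and 0.0014 in edgeR), against 1.59% of all genes tested. The list was drawn up with earlier results of these data known, so this count is a description. EN1 and EN2 shared with IRX1 the order of the libraries, as did NKX6-1 of this list and the crest markers SOX10 and FOXD3. The share of all genes with that order was not counted. NKX2-2, of the ventral neural tube, had 0 counts in all libraries, where 3 counts would have given at most 0.0795 TPM, and DBX1 had 1 count in all. SIX3, a forebrain factor and mutual repressor of IRX3 in chick, had at most 0.02 TPM. OLIG2, which borders IRX3 in the spinal cord, had at most 0.09 TPM. Some factors missed the rule but passed 1 TPM in some libraries. In replicates 1, 2 and 3 these were OTX2 (0.83, 1.68 and 1.49 TPM), OTX1 (1.27, 1.22 and 0.78) and NKX6-1 (1.89, 0.75 and 0.45). SIX3, OLIG2, OTX2, OTX1 and NKX6-1 were also chosen with their values in view.

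WNT target genes were detected in 7 of 8 cases (62.2% of all protein-coding genes), among them LEF1 at 65.4 ± 15.3 and AXIN2 at 39.4 ± 10.4 TPM (SD, n = 3), and 7 of 7 were highest in replicate 2, as were 34.01% of detected protein-coding genes (4202 of 12354). None of the 4 detected IRX genes was highest there: IRX3 and IRX5 were lowest in replicate 2, IRX1 was lowest in replicate 3, and IRX2 was nearly equal in both. NKD1 was the 1 of 8 tested WNT target genes called for excess spread, against 1.59% of all genes tested. Tissues in which IRX4, IRX5 or IRX6 are best known left no detected markers, with 0 of 9 cardiomyocyte genes and 0 of 8 retina genes. MYL2, MYL7, TBX5 and VSX1 had 0 counts in all libraries. Of 9 epidermis and placode markers 4 were detected, among them KRT8 and KRT18, and KRT5 and KRT14 had 0 counts.

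Likeness of pattern was measured as the Euclidean distance in log2(TPM + 1) over the 3 libraries, among 104 homeobox genes. The nearest to IRX1 were GBX2 (distance 0.59) and POU3F3 (0.89), and the nearest to IRX2 were POU3F3 (0.50), at 57.9, 29.7 and 33.7 TPM, and PBX3 (0.81). Nearest to IRX3 were SIX5 (0.46) and PKNOX2 (0.50), and nearest to IRX5 were PBX4 (0.78) and ONECUT2 (0.79). A distance over 3 libraries is set mostly by the level of a gene and is given as a description.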

How the data were processed

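Polyadenylated RNA of 3 wild-type pNPC replicates was taken as 1 group from the titles of the samples. Separate cultures are not stated in the labels, so the spread that the p-values measure is that between these libraries and may be technical. RSEM 1.3.1, STAR 2.7.11a, Trim Galore 0.6.10 and the GRCh38 build are listed, without role or order, in the submitters' processing notes. No source used here gives strandedness, read layout or annotation release. Per the file headers, the deposited expected counts are unscaled estimates of reads per gene, the deposited TPM values are scaled for effective length and library, the deposited FPKM values were used in alternatives, and lengths are in bases.

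Counts were rounded and tested over all genes in edgeR 4.0.16 (limma 3.58.1, R 4.3.3; TMM, filterByExpr), with a negative binomial model of 1 mean per gene at the trended dispersion, its residual deviance set against a chi-square distribution on 2 degrees of freedom (Benjamini-Hochberg threshold 0.05). DESeq2 1.42.0 gave alternatives. The test was tested on simulated data. Within-library differences were tested by exact permutation of signs, two-sided. Levels were summarised in Python 3.11.15 (pandas 2.3.3, scipy 1.17.1, numpy 2.4.6) and drawn with matplotlib 3.10.9. Gene types, transcripts and overlaps came from GENCODE release 29 (92.8% of identifiers matched without version), and coordinates and promoters from RefSeq (GRCh38.p14). Poisson intervals and floors of 3 counts cover counting error only. Members, lists and tests were chosen with earlier results of these data known. All IRX genes were described. Of each of the 11 other lists all detected members could be named where it had at most 12 genes, otherwise the 3 highest and 2 lowest by mean TPM. Nearest neighbours, FTO and CRNDE were named, as were the 2 most alike homeobox genes of each detected IRX gene.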

Additional observations from a re-analysis of the deposited data

How the results depend on the processing

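The means of the difference between the clusters and of the 5 steps in the order of levels kept their sign under every alternative run and without each replicate. Single libraries could differ in sign: in CPM with no length scaling, IRX1 was below IRX2 in replicate 3, at 39.7 against 47.0. Chromosome 16 minus chromosome 5 ranged from -2.05 to -1.38 over the alternatives and from -2.08 to -1.57 without 1 replicate. Steps without 1 replicate ranged from 0.55 to 0.86 (IRX1 minus IRX2), 0.52 to 0.82 (IRX2 minus IRX3), 2.06 to 2.23 (IRX3 minus IRX5), 1.94 to 2.43 (IRX5 minus IRX4) and 0.03 to 0.09 (IRX4 minus IRX6). Detected IRX genes numbered 3 at a TPM minimum of 5 and 4 otherwise. IRX genes called for excess spread numbered 0 with a common dispersion (3 at an unadjusted p under 0.05), 2 with the length trend removed, and 0 to 0 without 1 replicate (3, 2 and 3 at an unadjusted p under 0.05 without replicates 1, 2 and 3); DESeq2's dispersion trend called 1. Over all genes the calls numbered 95 to 117 without 1 replicate and 246 to 332 otherwise. The adjusted p of IRX1 ranged from 0.00117 to 0.858, and the cause was not tested. No paired analysis was possible because the series has 1 group, so no replicate numbers are shared between groups; the differences above were taken within libraries. Depth limits statements on IRX4 and IRX6, with 12 and 10 counts in all.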
